A study of Homo sapiens with 3 samples.

Results

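DNA mismatch repair removes bases that a polymerase has misplaced and loops that it has left by slipping on a repeat. MutS proteins bind the mismatch as dimers, MutL proteins are recruited to them, and the new strand is then cut, degraded and resynthesized. MSH6 and MSH3 are MutS subunits with different targets: MSH6 recognizes single mismatched bases and very short loops, and MSH3 recognizes longer insertion and deletion loops. PMS2 is a MutL subunit with an endonuclease activity that nicks the new strand, PMS1 is a MutL relative with a lesser known part in repair, and MLH3 is a MutL endonuclease subunit best known from meiotic crossovers. MSH4 and MSH5 form a MutS dimer that stabilizes recombination intermediates in meiosis and takes no part in mismatch repair.

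The levels of these 7 genes (MSH3, MSH4, MSH5, MSH6, MLH3, PMS1 and PMS2) were examined in H9, an established human embryonic stem cell line. They were taken by name from the 58051 genes in the deposited counts, without use of their values, and all 7 were found by Ensembl identifier. Other MutS and MutL genes were not analysed here. Total RNA from wild-type H9 cells without treatment, grown in Essential 8 Flex medium on vitronectin, was sequenced in 3 replicates after depletion of ribosomal RNA, with 1 library each. The study used gene expression in these cells to group replication origins at TSSs and splice sites when it counted DNA breaks there. There is 1 condition, so no difference between conditions could be tested. An exact sign-flip test over 3 libraries cannot give a two-sided p below 0.25, so no p is given for differences between genes.

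Totals of 8655155 to 12024802 reads were counted on genes. Nothing in the labels says whether the replicates came from separate cultures, so their spread may be technical. The pluripotency genes POU5F1, NANOG, SOX2, LIN28A and DPPA4, which define the labelled cell type, had means of 275 to 2576 TPM. TPM, the unit used here, is the count divided by the length of all annotated exons of a gene together and then scaled to the same total in each library. Of 5 germ cell markers, DDX4 had 0, 1 and 1 reads, and the summed level of the list lay between 19.2 and 25.9 TPM, most of it from DND1 at 18.6 TPM. As in the methods of the study, genes under 0.01 TPM were called nonexpressed and the rest of the protein-coding genes were divided into 3 quantiles, with boundaries at 3.35 and 26.96 TPM.

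The levels of the 7 genes spanned from 0.298 to 101 TPM. MSH6, PMS1 and MSH3 were in the high class, MLH3, MSH5 and PMS2 in the medium class and MSH4 in the low class. Thus 3 of 7 were in the high class, and 28.8% of all 19629 protein-coding genes were. Their median was 8.86 TPM, beside a median of 7.10 TPM over all protein-coding genes. MSH6 alone held 77.1% of the reads on the 7 genes and 53.6% of their summed TPM.

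**Figure D1:**
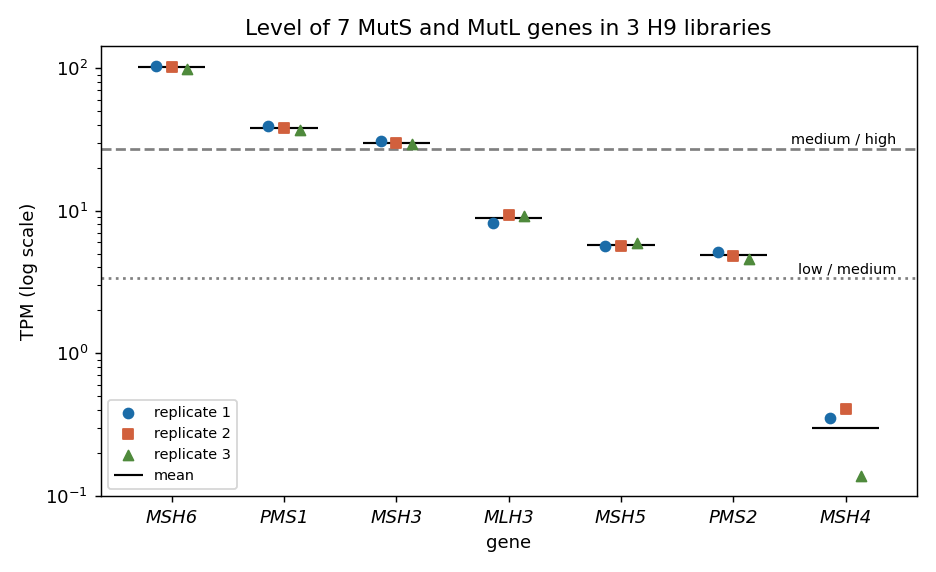
TPM of each of the 7 genes (log axis) in replicates 1 to 3 (circles, squares and triangles), with a bar at the mean and dashed and dotted lines at the class boundaries of 26.96 and 3.35 TPM. MSH6, at 99.2 to 103 TPM, stands above all others, MSH3 lies just above the upper boundary, and MSH4 lies below the lower boundary in every library.

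MSH6 (ENSG00000116062, chromosome 2, 47695530 to 47810063, plus strand, GRCh38) had the highest level of the 7 genes. It had 4744, 5488 and 3900 reads in replicates 1, 2 and 3, which gave 102.8, 102.3 and 99.2 TPM. Its mean was 101 ± 2.00 TPM (SD, n = 3), above 91.8% of protein-coding genes. MSH3 (ENSG00000113318, chromosome 5, 80654652 to 80876815, plus strand) had 428, 480 and 347 reads and 30.9, 29.8 and 29.3 TPM. Its mean of 29.99 ± 0.781 TPM (SD, n = 3) was above 73.3% of protein-coding genes. It lay just above the boundary of the high class and was in that class in each library alone. In replicate 3 that boundary was 28.96 TPM, and counting error alone gives a relative spread of about 4.92% in a library. The class of MSH3 in single libraries is thus not firm. With the length of its longest transcript, 4486 bases, it had 26.8 TPM and was in the medium class.

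The level of MSH6 exceeded that of MSH3 in every library. The ratio was 3.33, 3.44 and 3.38 in replicates 1, 2 and 3, and its log2 was 1.76 ± 0.02 (SD, n = 3), so that the ratio moved far less between libraries than its distance from equal levels. Its size depends on the annotated length of MSH6. The union of MSH6 exons in GENCODE measures 17722 bases, over 26 transcripts, which is 4.16 times the 4265 bases of its MANE Select transcript, the transcript agreed on by GENCODE and RefSeq as representative. For MSH3 the same lengths are 5329 and 4443 bases. With the MANE Select length, MSH6 had 306 TPM and MSH3 26.1 TPM, and the log2 ratio became 3.55. MSH6 was the higher of both under every length, by a log2 ratio of at least 1.76.

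Part of the annotated MSH6 exons lie over another gene. Of its exon length, 22.7% is shared with exons of FBXO11, a ubiquitin ligase subunit encoded on the opposite strand. FBXO11 had 35.1, 39.4 and 34.8 TPM, which is below MSH6 in all 3 libraries. The pseudogene RPL36AP15, also on the opposite strand, lies in MSH6 exons and had 5, 7 and 1 reads. Since the use of strand in the counting is not given, reads in the shared exons cannot be assigned to one gene.

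PMS1 (ENSG00000064933, chromosome 2, 189784085 to 189877629, plus strand) had the highest level of the MutL genes examined here. It had 553, 631 and 446 reads, or 39.0, 38.3 and 36.9 TPM, with a mean of 38.1 ± 1.07 TPM (SD, n = 3). MLH3 (ENSG00000119684, chromosome 14, 75013769 to 75051532, minus strand) had 178, 235 and 169 reads, or 8.18, 9.29 and 9.11 TPM, with a mean of 8.86 ± 0.596 TPM (SD, n = 3). PMS2 (ENSG00000122512, chromosome 7, 5970925 to 6009130, minus strand) had 150, 164 and 115 reads, or 5.13, 4.82 and 4.61 TPM, with a mean of 4.85 ± 0.260 TPM (SD, n = 3). PMS2 was in the medium class by its mean and in replicates 1 and 2, and in the low class in replicate 3, where the lower boundary was 4.75 TPM.

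The level of PMS2 was 0.132, 0.126 and 0.125 times that of PMS1 in replicates 1, 2 and 3, a log2 ratio of -2.97 ± 0.04 (SD, n = 3). PMS2 was also below MLH3 in every library, by a log2 ratio of -0.87 ± 0.17 (SD, n = 3). The sign of this last ratio depends on the gene length. The exons of PMS2 come from 71 annotated transcripts and measure 11237 bases in all, against 5093 bases in its MANE Select transcript, whereas those of MLH3 measure 8358 and 7820 bases. With the MANE Select length the ratio was 0.18, and with the coding length 0.21, so that PMS2 and MLH3 have no fixed order. The ratio of PMS2 to PMS1 stayed negative under every alternative, from -3.07 to -1.76.

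**Figure D2:**
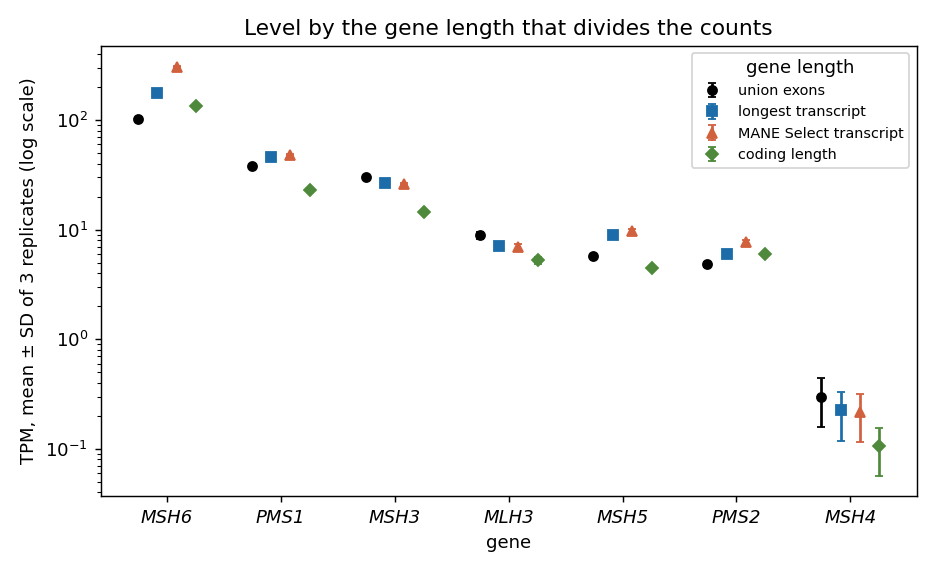
Mean TPM of the 7 genes (log axis) with the counts divided by 4 different gene lengths: the union of exons, the longest transcript, the MANE Select transcript and the coding sequence. Error bars are the SD of 3 replicates. MSH6 is highest and MSH4 lowest under all 4 lengths, while MLH3, MSH5 and PMS2 change places.

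PMS2 has copies elsewhere on chromosome 7 that bear on its count. GENCODE lists 17 genes under the names PMS2CL or PMS2P and a number, 15 of which are in the deposited counts. Of these, 9 had at least 1 read and 6 had none. The sequences below show how close the copy PMS2CL is, in a stretch chosen for its 1 differing base. They are 61 bases of coding exon 14 of PMS2 (chr7:5977679-5977739, minus strand) and the matching bases of PMS2CL (chr7:6747054-6747114, plus strand), from the GRCh38 reference, 5′ to 3′. The capital marks the only base that differs, A31G, counted from 1 at the 5′ end with the base of PMS2 first.
PMS2: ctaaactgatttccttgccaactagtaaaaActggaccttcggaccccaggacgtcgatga
PMS2CL: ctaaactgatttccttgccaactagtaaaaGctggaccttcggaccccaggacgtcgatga

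Of the 15 coding exons of the PMS2 MANE Select transcript, 5 (exons 9 and 12 to 15) had a match in the span of PMS2CL with at least 90% identity in an alignment without gaps. They hold 665 of 2586 coding bases and differ from PMS2CL at 5 positions. The whole exon had to match, so an exon copied only in part or with a gap is not counted here. The other copies were not aligned in this way. Exons 12 and 15 are identical, exons 13 and 14 differ at 1 base each, and exon 9 differs at 3 bases. A read that falls whole in an identical stretch cannot be placed by its sequence. Over all annotated exons of PMS2, 28.6% of windows of 64 bases occur identically at another place on the main chromosomes, and 24.5% of all windows occur within 6700001 to 6800000 of chromosome 7. The latter lie in the span of a noncoding RNA gene (ENSG00000290835) that encloses PMS2CL and has no count here, and 4.89% of the windows lie in the span of PMS2CL itself. For the other 6 genes the share of such windows lay between 0% and 3.33%.

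The copies together had 181, 213 and 165 reads in replicates 1, 2 and 3, more than PMS2 itself in each library. They held 54.7%, 56.5% and 58.9% of the reads on PMS2 and its copies. PMS2CL had 76, 84 and 71 reads, or 19.4 TPM in the mean, and PMS2P1 had 47, 60 and 40 reads, or 34.7 TPM. PMS2P3 had 18, 31 and 21 reads, PMS2P4 had 12, 18 and 19, and the remaining copies had at most 12 in any library. Divided by exon length, PMS2CL had 3.96 times the reads of PMS2, and 1.79 times with the MANE Select length for PMS2. How the counting treated reads that match more than 1 place is not given. Adding all reads counted on the copies to PMS2 raised its mean from 4.85 to 11.2 TPM, above MLH3, but this leaves out any reads that were not counted on PMS2 or a named copy.

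**Figure D3:**
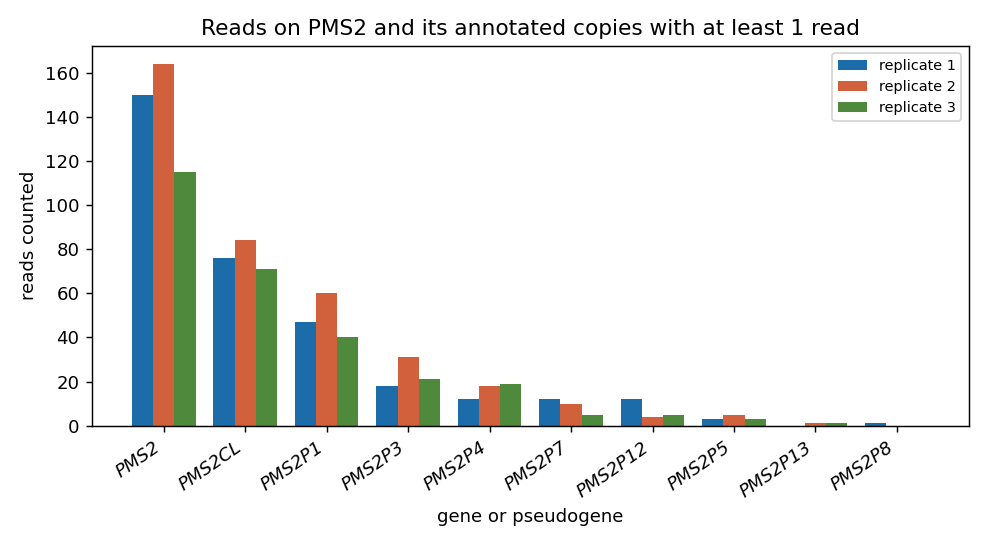
Reads counted on PMS2 and on each annotated copy with at least 1 read, with a bar for each of replicates 1 to 3. PMS2 has 115 to 164 reads, PMS2CL 71 to 84 and PMS2P1 40 to 60, and the remaining copies have at most 31.

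The meiotic MutS genes were at lower levels than MSH6 and MSH3, and they differed from each other. MSH5 (ENSG00000204410, chromosome 6, 31739677 to 31762676, plus strand) had 93, 108 and 83 reads, or 5.69, 5.68 and 5.95 TPM, with a mean of 5.77 ± 0.155 TPM (SD, n = 3). MSH4 (ENSG00000057468, chromosome 1, 75796882 to 75913242, plus strand) had 3, 4 and 1 reads, or 0.352, 0.404 and 0.138 TPM, with a mean of 0.298 ± 0.141 TPM (SD, n = 3). A count of 0 leaves an expected count of up to 3 reads possible. The counts of MSH4 were close to that number, and above it only in replicate 2, so single libraries say little about its level. Its 8 reads in all have an exact Poisson 95% interval of 3.45 to 15.8 reads, which covers counting error only.

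Per exon length, MSH5 had 18.5 times the reads of MSH4 over the 3 replicates, with an exact binomial 95% interval of 9.25 to 43.2 for counting error. This fold rests on the union of MSH5 exons, 6284 bases, which is much longer than its MANE Select transcript of 2721 bases. With the MANE Select length MSH5 had 9.68 TPM and MSH4 0.216 TPM, a wider gap. MSH5 shares 44.4% of its exon length with the readthrough gene MSH5-SAPCD1 on the same strand, which had 1, 0 and 0 reads. The shared exons make up 67.3% of the exon length of MSH5-SAPCD1, yet hardly any reads were counted on it. Whether common reads were counted on MSH5 or left out is not given. If they were left out, the level of MSH5 given here is too low, and so is its fold over MSH4. The other comparisons of MSH5 carry the same limit. The downstream gene SAPCD1 had 2, 7 and 3 reads. MSH4 shares no exon with another gene, has 1 annotated transcript, and none of its windows of 64 bases occurs elsewhere.

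In the order MSH6, PMS1, MSH3, MLH3, MSH5, PMS2 and MSH4, each gene was above the next in 3 of 3 replicates, no neighbors overlapped in their ranges, and each difference of means exceeded the larger SD. The closest neighbors were MSH5 and PMS2, which differed by 0.918 TPM, beside a larger SD of 0.260 TPM. Counting error alone gives a coefficient of variation of about 10.3% for MSH5 and 8.43% for PMS2, above the observed 2.69% and 5.35%. The SD therefore understates the uncertainty of this gap. The order of MLH3, MSH5 and PMS2 rests on the gene length. PMS2 was above MSH5 with the coding length, at 6.05 against 4.46 TPM, and MSH5 was above MLH3 with the MANE Select length, at 9.68 against 6.88 TPM. PMS1 and MSH3 differed 1.27-fold, and counting error alone, at 4.32% and 4.92%, was again above their observed 2.82% and 2.60%. The read numbers of every gene varied little between libraries beyond their totals, with chi-square values of at most 2.14 on 2 degrees of freedom. The coefficient of variation of TPM was 1.97% for MSH6, 2.60% to 6.72% for PMS1, MSH3, MSH5, PMS2 and MLH3, and 47.4% for MSH4.

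Replicate 3 was the lowest of the libraries for MSH6, MSH3, PMS1, PMS2 and MSH4 and the highest for MSH5. The log2 ratio of replicate 3 to the mean of the others was -0.05 for MSH6, -0.05 for MSH3, -0.07 for PMS1 and -0.11 for PMS2, and 0.07 for MSH5 and 0.06 for MLH3. For MSH4, with 1 read in replicate 3, it was -1.46. By the chi-square values above, the read numbers of these genes did not vary beyond counting error. The exon GC content of MSH5, 52.5%, was the highest of the 7, and that of the others lay between 37.0% and 45.1%. Whether GC content had a part in these differences was not tested.

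The partners of MutS and MutL in repair were mostly at high levels. In a list of 20 genes for excision, resynthesis and accessory steps, 17 were in the high class, 2 in the medium class and 1 in the low class, with a median of 55.8 TPM. Of all protein-coding genes, 28.8% were in the high class, and their median was 7.10 TPM. The highest were PCNA, the sliding clamp that directs repair to the new strand, at 802 ± 36.4 TPM (SD, n = 3), HMGB1, a DNA-bending chromatin protein, at 300.2 ± 12.2 TPM (SD, n = 3) and RPA1, which coats single-stranded DNA, at 151 ± 5.27 TPM (SD, n = 3). The lowest were POLD4, the smallest subunit of polymerase δ, at 2.82 ± 0.690 TPM (SD, n = 3), the helicase gene MCM9 at 9.51 ± 0.766 TPM (SD, n = 3) and the nuclease gene FAN1 at 10.99 ± 0.451 TPM (SD, n = 3).

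The exonuclease gene EXO1, whose product degrades the nicked strand, had 65.1, 68.0 and 67.0 TPM. It was below MSH6 and above PMS1 in all 3 libraries. The clamp loader genes RFC1 to RFC5 had means from 60.6 to 110 TPM. LIG1, the ligase that seals the repaired strand, had 32.9 ± 0.811 TPM (SD, n = 3), between PMS1 and MSH3. POLD1, the catalytic subunit of polymerase δ, had 46.6 and 47.3 TPM in replicates 1 and 2 and 59.1 TPM in replicate 3. By their means, MLH3, MSH5 and PMS2 were below 19 of these 20 genes, the exception being POLD4, and MSH4 was below all 20. The ranges of MLH3 and MCM9 overlapped, and in replicate 3 MLH3 was the higher, at 9.11 against 8.69 TPM. With the reads of its copies added, PMS2 had 11.2 TPM, above MCM9 and FAN1. These ranks rest on the union of exons as gene length.

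Genes of meiotic recombination and synapsis, the setting in which MSH4 and MSH5 act, had a lower median than the 7 genes. Of 17 such genes, 1 was in the high, 4 in the medium and 9 in the low class, and SPO11, SPATA22 and HORMAD2 had no read in any library. SPO11 makes the DNA breaks that start meiotic recombination. The median of the list was 0.418 TPM, and 11 of the 17 were below 1 TPM, as was MSH4. In all protein-coding genes, 6406 of 19629 were below 1 TPM, and 5656 were in the low class and 2661 were nonexpressed. The highest of the meiotic genes were CCNB1IP1, a ubiquitin ligase gene needed for crossovers, at 94.8 ± 3.50 TPM (SD, n = 3), the meiotic cohesin gene REC8 at 23.9 ± 1.58 TPM (SD, n = 3) and the recombinase gene DMC1 at 8.66 ± 0.508 TPM (SD, n = 3). MSH5 lay between DMC1 and the cohesin gene STAG3, which had 5.52 ± 0.877 TPM (SD, n = 3), and the ranges of MSH5 and STAG3 overlapped. In bulk RNA a low level in all cells and a higher level in few cells cannot be told apart.

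**Figure D4:**
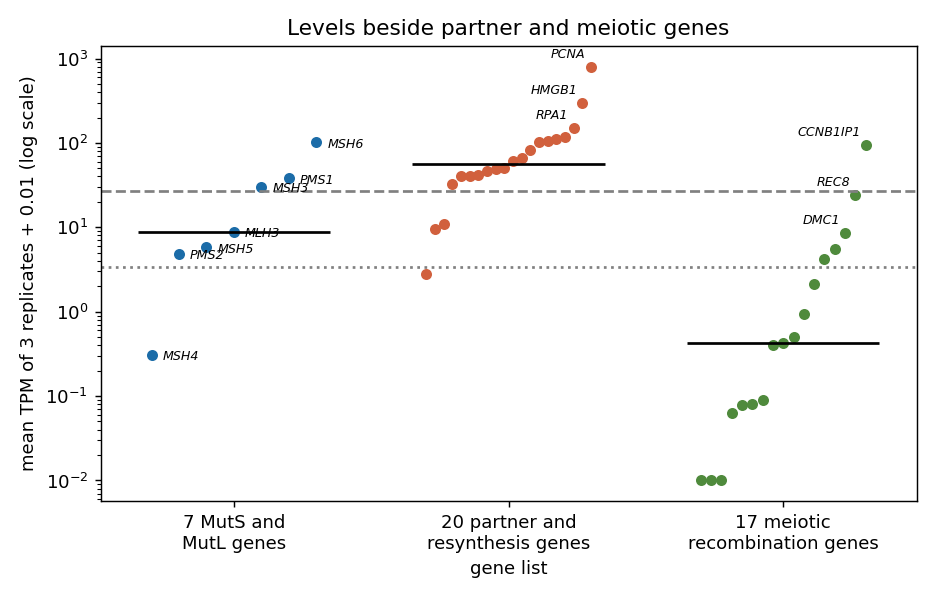
Mean TPM of 3 replicates plus 0.01 (log axis) of the 7 MutS and MutL genes, 20 partner and resynthesis genes and 17 genes of meiotic recombination, each point a gene, with a bar at the median of each list and lines at the class boundaries. The medians are 8.86, 55.8 and 0.418 TPM, and MSH4 is the only one of the 7 genes below 1 TPM.

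MSH5, PMS2 and PMS1 each have a protein-coding neighbor whose annotated start lies within 500 bases on the opposite strand. Of all protein-coding genes, 10.9% have such a neighbor. MSH5 starts 86 bases from CLIC1, an intracellular chloride channel gene. PMS2 starts 125 bases from AIMP2, a scaffold gene of the tRNA synthetase complex. PMS1 starts 279 bases from ORMDL1, a regulator of sphingolipid synthesis. The spans of MSH5 and CLIC1 overlap between their starts, as do those of PMS1 and ORMDL1, and only PMS2 and AIMP2 have a space between them.

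The levels of CLIC1 and AIMP2 were far above those of MSH5 and PMS2. CLIC1 had 393, 396 and 370 TPM, 66.9 times MSH5, and AIMP2 had 117, 113 and 110 TPM, 23.3 times PMS2. In both pairs the neighbor was higher in all 3 libraries under every gene length tried. ORMDL1, at 29.05, 34.4 and 34.9 TPM, was below PMS1 in each library, but it was 3.86 times as high as PMS1 with the coding length, so that this pair has no fixed order. Exons shared across strands made up 1.76% of PMS1 and 0.557% of MSH5, and PMS2 and AIMP2 share none.

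**Figure D5:**
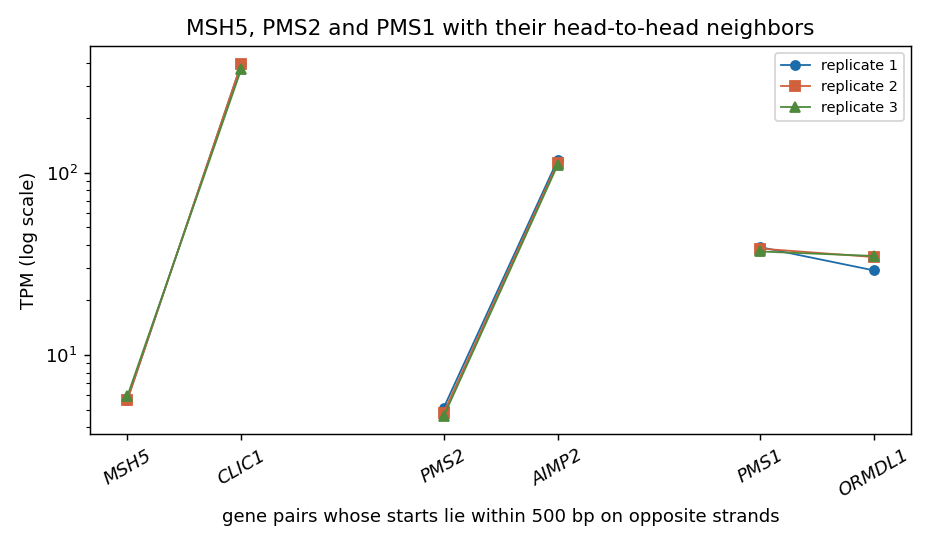
TPM (log axis) of MSH5, PMS2 and PMS1, each joined by a line to the gene that starts within 500 bases on the opposite strand, in replicates 1 to 3. CLIC1 and AIMP2 are far above their partners in each library, and ORMDL1 is close to PMS1.

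The sequences before the starts of the 7 genes differed in base composition. The stretches below are shown for the gene with the highest level, the gene with the lowest, and the space between PMS2 and AIMP2. They come from RefSeq promoter windows on GRCh38, cut to the longest part of the 250 bases before the start without an annotated exon, 5′ to 3′ on the strand of the gene. All 7 genes matched a window by symbol. The RefSeq starts of MSH6, MSH5, PMS2, PMS1 and MLH3 lie inside the gene spans given above, which begin farther upstream with other GENCODE transcripts. Capitals mark CCAAT, the GC box GGGCGG and the E2F motif (TTTGGCGC, TTTCCCGC, TTTGCCGC or TTTCGCGC), on either strand.
MSH6 (chr2:47782895-47783081, plus strand): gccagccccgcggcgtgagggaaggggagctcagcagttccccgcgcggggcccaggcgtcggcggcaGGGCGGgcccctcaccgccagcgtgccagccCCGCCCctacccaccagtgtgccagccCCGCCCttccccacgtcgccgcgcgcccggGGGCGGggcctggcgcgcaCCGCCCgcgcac
MSH4 (chr1:75796632-75796881, plus strand): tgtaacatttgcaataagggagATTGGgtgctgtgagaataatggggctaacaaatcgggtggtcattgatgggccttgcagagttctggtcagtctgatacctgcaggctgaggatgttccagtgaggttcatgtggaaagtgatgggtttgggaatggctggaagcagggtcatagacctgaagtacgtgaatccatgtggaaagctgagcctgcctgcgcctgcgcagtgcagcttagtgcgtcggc
PMS2 (chr7:6009131-6009254, minus strand): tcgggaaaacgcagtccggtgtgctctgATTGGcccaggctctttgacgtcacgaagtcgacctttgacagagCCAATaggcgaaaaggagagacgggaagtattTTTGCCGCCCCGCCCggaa

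The whole windows of 250 bases can include annotated exons, and that of PMS1 holds no base outside them. In the whole windows, MSH6 had a GC content of 81.2% and 5 GC boxes. MSH4 had 52.0%, no GC box and a ratio of observed to expected CpG of 0.401, the lowest of the 7 genes, where the others had 0.832 to 1.03. Over 15345 protein-coding promoters the medians were 62.4% GC and a CpG ratio of 0.740. A GC box was found in 5 of the 7 windows and in 56.5% of all promoters, and CCAAT in 5 of 7 and in 34.8%. The E2F motif was found in the windows of MSH3, with 2 overlapping matches, and of PMS2, where it overlaps a GC box, and in 3.76% of all promoters. No window held TATAAA, which 9.34% of promoters hold. MLH3, with 47.2% GC, held none of these motifs. A match is a run of letters and not a measured binding site.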

How the data were processed

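The authors aligned the reads with TopHat2 (2.1.1) and deposited raw counts of reads per gene, without normalization. The submitters' processing notes also name Trim Galore (0.4.4), Cufflinks (2.2.1) and GRCh38. Which program and annotation gave the counts, and how strand and multiply aligned reads were handled, is not given in the sources used here.

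Counts were joined by Ensembl identifier to GENCODE release 44 (GRCh38), in which 56948 identifiers matched. TPM was computed with the union of exons as gene length, and averaged over replicates. Since the counting annotation is not given, the union may hold exons on which no reads were counted. For a gene with such exons the TPM would be too low. The 7 genes were taken by name and not by their values. Earlier results of these data were known when the genes, lists and alternatives were chosen. The text names all 7 genes, the annotated neighbors that share exons or face them, the copies with the most reads, with 1 item not reported here, and the 3 highest and lowest of the partner and meiotic lists; RFC1 to RFC5, EXO1, LIG1, POLD1 and STAG3 were named after their values were seen. No test across genes was made. Classes were tested on simulated data. Alternatives changed the gene length, unit, scaling (edgeR 4.0.16, DESeq2 1.42.0), threshold, depth and replicates; the MANE Select length was added after seeing the data. Depth limits MSH4, and intervals cover counting error only. Software was matplotlib 3.10.9, scipy 1.17.1, pandas 2.3.3 and numpy 2.4.6 under Python 3.11.15, with R 4.3.3.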

Additional observations from a re-analysis of the deposited data

How the results depend on the processing

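With the longest transcript, MSH6, MSH3, MSH5, PMS2, PMS1 and MLH3 had means of 176, 26.8, 8.94, 6.03, 45.7 and 7.13 TPM. With the MANE Select transcript, an alternative added after seeing the data, they had 306, 26.1, 9.68, 7.78, 47.7 and 6.88 TPM. With the coding length they had 135, 14.4, 4.46, 6.05, 22.8 and 5.23 TPM, and MSH4 had 0.106 TPM. The log2 ratio of MSH6 to MSH3 became 2.72, 3.55 and 3.23 with these lengths, and that of PMS2 to PMS1 became -2.92, -2.62 and -1.91. That of PMS2 to MLH3 became -0.24 with the longest transcript and turned positive with the others, to 0.18 and 0.21. MSH3 left the high class with the longest or the MANE Select transcript, and the coding length left only MSH6 there, which is 1 gene. CPM, another unit, gave 455, 40.4, 9.17, 13.8, 52.4 and 18.7, and log2 ratios of 3.49, -1.93 and -0.44. Of the 21 pairs of genes, 19 to 21 kept their order under every alternative.

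Adding the reads of its copies gave PMS2 11.2 TPM and log2 ratios of -1.76 to PMS1 and 0.34 to MLH3, since it only adds reads. Without mitochondrial genes, MSH6, MSH3, MSH5 and PMS1 had 106, 31.2, 6.01 and 39.6 TPM, as the total is smaller. With counts thinned to 10%, MSH5 had 5.25 TPM and the ratios of MSH6 to MSH3 and PMS2 to PMS1 were 1.80 and -3.07, with 2 genes in the high class, and the cause was not tested. TMM and DESeq2 scaling and leaving out each replicate moved no mean by more than its SD, although leaving out 1 of 3 replicates cannot do so. Among the thresholds, 1 TPM left 2 genes in the high class and classifying all genes placed 4 there. No paired analysis was possible because there is 1 condition.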
